A study of Homo sapiens with 6 samples.

Results

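The genes described here encode collagen chains. They were found as probe sets of the authors' deposited table of 2411 probe sets whose gene symbol is COL, a number, A and a number. This gave 16 probe sets of 11 genes out of 54613 probe sets on the arrays. The table holds only probe sets with a p-value at or under 0.05 in the authors' own comparison of these arrays, which is 4.41% of all probe sets. The members were thus chosen by the difference measured between these groups, and all differences of collagen genes are given as descriptions. Where limma, run over all probe sets, called some of them, the count is printed beside its share over all probe sets and supports nothing. The deposited p-values of the 16 run between 5.91e-04 for a COL11A1 probe set and 0.0382 for COL8A1, both in the authors' deposited table. Probe sets just outside the limit carry no name here, so a collagen gene or probe set that is missing from this account may still be on the arrays with a smaller difference.

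Single-colour Affymetrix arrays were hybridised with RNA of CCD-18Co, an established line of human colon fibroblasts that the submitters also describe as primary myofibroblasts. In one group, 3 cultures were stimulated with SHH, the sonic hedgehog protein, which signals through the receptors Patched and Smoothened, at 1 ug/ml for 72 h. In the other, 3 cultures were left untreated, and the deposited readme calls this group vehicle. The medium of both groups held 0.1% bovine serum albumin, and no time in culture is recorded for the untreated cells. All cultures come from 1 cell line, so that the spread is between cultures and not between donors. The median signal per array lay between 94.4 and 111.1, the largest between 30242 and 35610. Precision is limited by the small number of arrays.

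Collagens are secreted or membrane-bound proteins in which 3 chains wind around each other along stretches with a regular repeat of glycine. Fibrillar collagens, among them types III and XI, build the cross-banded fibrils of connective tissue. Type IV collagen forms the sheet-like network of basement membranes, and other types bind to fibrils, form beaded filaments or short-chain networks, or span the cell membrane. Fibroblasts of the gut wall are a main source of these proteins.

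In SHH-treated cells, 12 of the 16 probe sets were higher and 4 were lower, which stand for 7 genes higher and 4 lower. The higher genes were COL11A1, COL4A1, COL4A2, COL13A1, COL6A3, COL12A1 and COL15A1, and the lower genes were COL3A1, COL14A1, COL16A1 and COL8A1. Log2 differences (SHH minus untreated, on log2 of signal + 16) lay between -0.66 for COL3A1 and 1.11 for COL13A1. Of all probe sets, 42.8% were higher. Over the 16 the median log2 difference was 0.49, against -0.047 over all probe sets. Its median size, without regard to sign, was 0.598 over the 16 and 0.530 over the authors' 2411 probe sets. Over all probe sets that size was 0.195. The SHH and untreated arrays did not overlap in any of the 16, but members had to differ to be named, and 17.3% of all probe sets did not overlap. All 16 lay above the median signal, and the share without overlap differed with brightness. It was 13.2% at a mean log2 signal of 6 to 8 and 23.9% at 8 to 10. At 10 to 12 it was 33.0%, at 12 to 13 41.3%, and at 13 or more 27.6%. No collagen probe set passed limma's adjusted threshold of 0.05, which 0.123% of all probe sets passed. An unadjusted limma p under 0.05 was found for 14 of the 16 and for 9.72% of all probe sets. When limma's prior followed an intensity trend, 9 of the 16 passed, 8 higher and 1 lower, where 1.86% of all probe sets passed. By direction, the intensity-trend shares over all probe sets were 1.01% higher and 0.850% lower, and the shares without overlap were 6.97% higher and 10.3% lower. Nothing is read from these counts, because the same contrast chose the members. Signals of different probe sets depend on their probes, so levels are compared between groups and not between genes. In such bulk samples fewer cells of a type and less RNA per cell cannot be told apart.

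**Figure D1:**
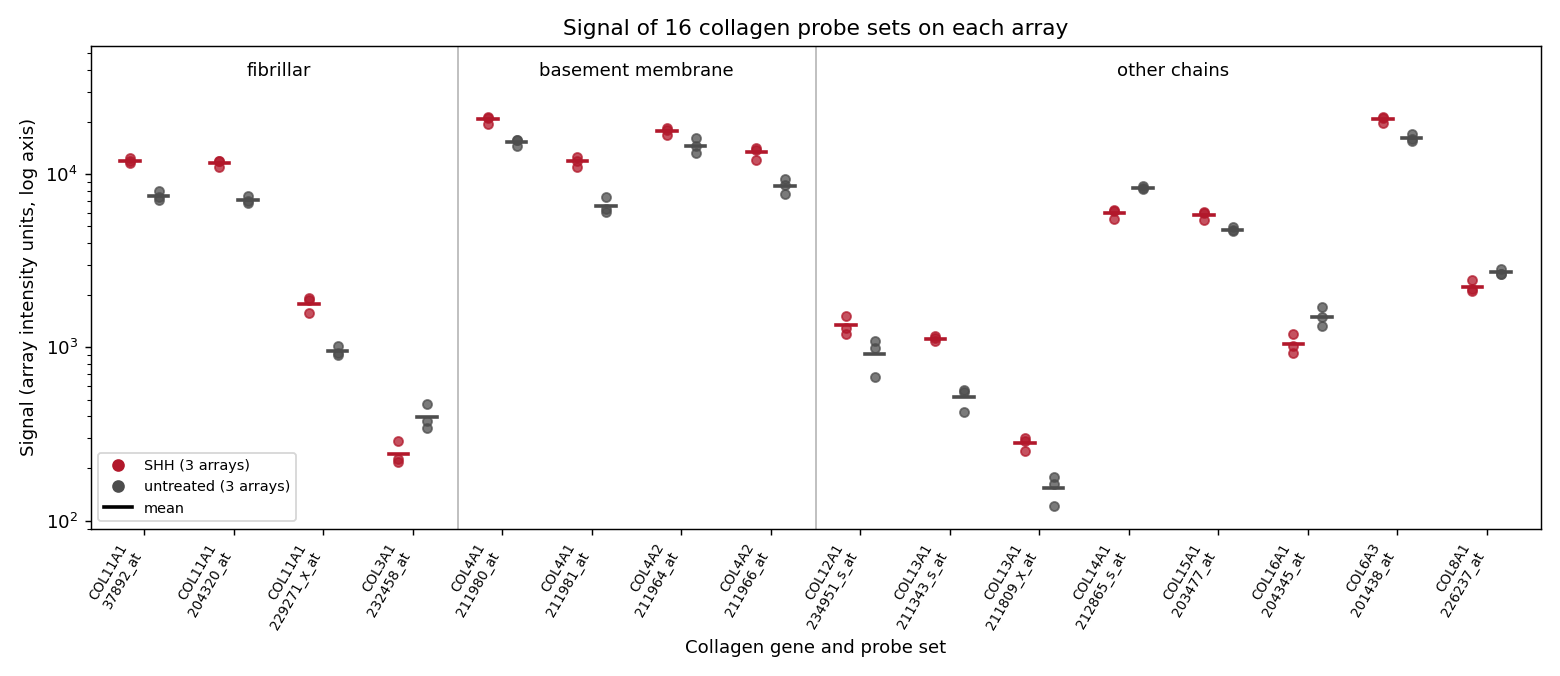
Signal of each of the 16 collagen probe sets (log axis, array intensity units) on the 3 SHH arrays (red, left of each pair) and the 3 untreated arrays (grey, right), with bars at the group means. The SHH arrays lie above the untreated arrays in 12 probe sets and below them in 4, with no overlap in any.

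Among fibrillar chains, COL11A1 and COL3A1 had a name, with 4 probe sets in all. COL11A1 encodes the alpha 1 chain of type XI collagen, a quantitatively minor component of fibrils that helps to set their diameter. Its brightest probe set (37892_at) had signals of 11527, 11930 and 12384 in SHH-treated cells, against 7420, 7106 and 7962 in untreated cells. The lowest SHH array thus stood 1.45 times above the highest untreated array. Group means were 11947 ± 429 with SHH and 7496 ± 433 untreated (SD, n = 3 each), a 1.59-fold difference, or 0.67 ± 0.11 on the log2 scale. The ± of log2 differences is the SE that limma moderates with variances from the whole array. A second COL11A1 probe set of like brightness (204320_at) read 10990, 11942 and 11911 with SHH, against 7470, 7008 and 6854 untreated. The third and dimmer one (229271_x_at) read 1575, 1870 and 1918 with SHH, against 905.5, 1017 and 925.4 untreated. Their log2 differences were 0.71 ± 0.11 and 0.90 ± 0.13, so the 3 probe sets of COL11A1 had differences within 0.23 of each other, and the dimmest had the largest.

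The promoter of COL11A1 is shown because this gene had the largest log2 difference among the named fibrillar chains and because its 3 probe sets lay close together. The window is chr1:103108473-103108772 on the minus strand of GRCh38.p14 (RefSeq), from 250 bases before the start site to 50 after it. Capitals mark each match, on either strand, to a motif searched. The GC box was spelled GGGCGG, as bound by Sp1. The box known as the CCAAT box was searched by those letters. The TATA box was spelled TATAAA in this search. GLI proteins are the transcription factors of the hedgehog pathway, and their consensus was spelled GACCACCCA here.
COL11A1: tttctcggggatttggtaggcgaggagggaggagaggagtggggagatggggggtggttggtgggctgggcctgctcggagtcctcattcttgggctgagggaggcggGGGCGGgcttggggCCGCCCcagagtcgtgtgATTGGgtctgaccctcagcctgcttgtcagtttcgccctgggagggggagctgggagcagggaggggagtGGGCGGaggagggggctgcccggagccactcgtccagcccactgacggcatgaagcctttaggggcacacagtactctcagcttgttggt
It holds 3 GC boxes, whose first bases lie 142, 128 and 40 bases before the start site, and 1 CCAAT box, which begins 110 bases before it. No match to GACCACCCA, on either strand, was found in it.

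COL3A1 encodes the chain of type III collagen, a fibrillar collagen of distensible organs such as gut and vessels. Its only named probe set (232458_at) had signals of 225.6, 218.3 and 286.4 with SHH, against 468.7, 343.2 and 374.5 untreated. All SHH arrays lay below all untreated arrays, by a factor of at least 1.20. Means were 243.4 ± 37.4 with SHH and 395.5 ± 65.3 untreated (SD, n = 3 each), and the log2 difference was -0.66 ± 0.17. This was the lowest log2 difference among the 16, and the direction was opposite to that of COL11A1. Other COL3A1 probe sets are unnamed here, so the direction rests on this 1 dim probe set (mean log2 signal 8.34) and may not hold for the gene.

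Of the basement membrane chains, COL4A1 and COL4A2 had a name, with 2 probe sets each and all 4 higher with SHH. These 2 chains assemble into the most widespread type IV collagen molecule. The brightest COL4A1 probe set (211980_at) read 19503, 21403 and 21191 with SHH, against 14588, 15684 and 15731 untreated. Its means were 20699 ± 1041 with SHH and 15334 ± 646 untreated (SD, n = 3 each), a 1.35-fold difference or 0.43 ± 0.11 on the log2 scale. The dimmer COL4A1 probe set (211981_at) read 11041, 11925 and 12630 with SHH, against 6036, 6325 and 7388 untreated. It gave a 1.80-fold difference (0.85 ± 0.13), so that the size for this gene depended on the probe set while the direction did not.

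The brightest COL4A2 probe set (211964_at) read 16925, 18364 and 17921 with SHH, against 13183, 14452 and 16154 untreated. Here the groups came closest of all 16 probe sets, with the lowest SHH array 1.05 times the highest untreated array. Its log2 difference was 0.28 ± 0.12. The other COL4A2 probe set (211966_at) read 12147, 13838 and 14068 with SHH, against 7727, 8661 and 9334 untreated, a log2 difference of 0.64 ± 0.13. In both type IV genes the dimmer probe set had the larger difference, by 0.42 for COL4A1 and 0.35 for COL4A2 on the log2 scale.

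COL4A1 and COL4A2 lie head to head on chromosome 13 and are transcribed in opposite directions from a shared region, which is shown because both genes were higher with SHH. In RefSeq (GRCh38.p14) their start sites are 127 bases apart. The COL4A1 window is chr13:110307108-110307407 on the minus strand and the COL4A2 window chr13:110307034-110307333 on the plus strand, and they share 226 of 300 bases. The COL4A1 window is printed 5′ to 3′ on the COL4A1 strand, with the same marks as for COL11A1.
COL4A1: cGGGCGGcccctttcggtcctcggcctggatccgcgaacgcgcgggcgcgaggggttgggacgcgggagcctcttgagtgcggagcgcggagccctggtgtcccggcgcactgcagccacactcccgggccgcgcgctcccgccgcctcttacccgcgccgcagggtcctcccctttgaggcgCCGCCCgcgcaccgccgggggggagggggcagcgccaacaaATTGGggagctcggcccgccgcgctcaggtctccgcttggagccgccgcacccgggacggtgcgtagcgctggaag
Its GC boxes begin 249 and 67 bases before the COL4A1 start site, and its CCAAT box begins 26 bases before it. Read from the COL4A2 side, the same CCAAT box begins 105 bases and the nearer GC box 65 bases before the COL4A2 start site. The GC content of the COL4A1 window is 76.7%, against a median of 58.7% over all 35116 RefSeq promoter windows.

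**Figure D2:**
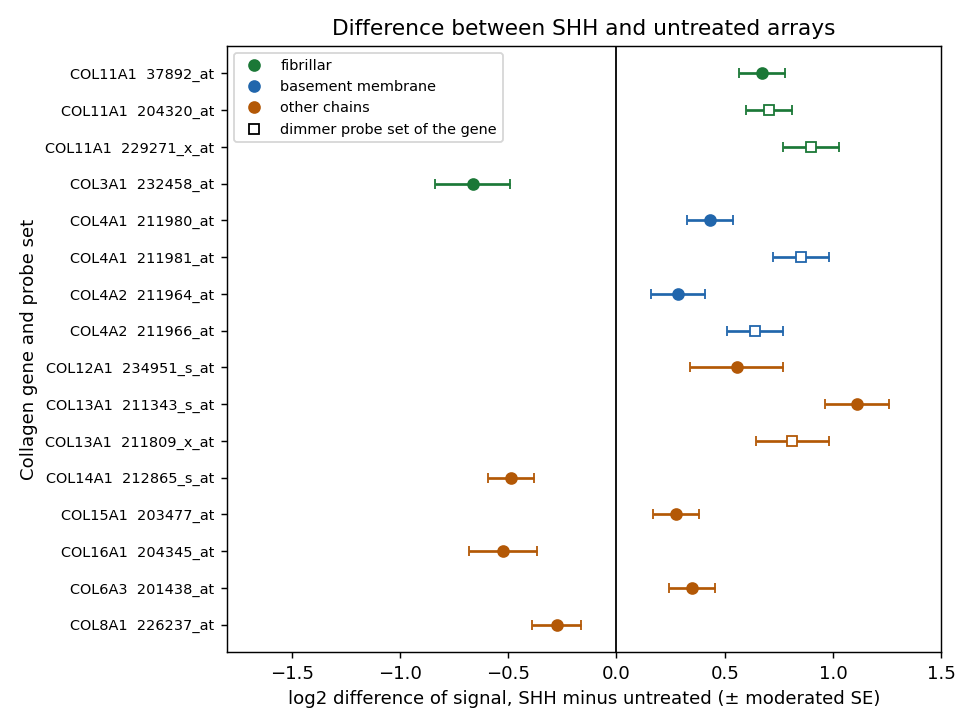
Log2 difference of signal, SHH minus untreated, for each collagen probe set, with limma's moderated SE as bars (3 arrays per group); filled circles are the brightest named probe set of a gene and open squares its dimmer ones. COL11A1, COL4A1, COL4A2 and COL13A1 have all their probe sets on the higher side, and COL3A1, COL14A1, COL16A1 and COL8A1 lie on the lower side.

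The other 7 genes had 8 probe sets, 5 higher and 3 lower. COL13A1 encodes a transmembrane collagen found at sites of cell adhesion. Its brighter probe set (211343_s_at) had signals of 1083, 1129 and 1156 with SHH, against 567.7, 423.0 and 555.7 untreated. Means were 1123 ± 36.6 with SHH and 515.4 ± 80.3 untreated (SD, n = 3 each), a 2.16-fold difference or 1.11 ± 0.15 on the log2 scale. This was the largest difference among the collagens, and the gap between the groups was also the widest, the lowest SHH array being 1.91 times the highest untreated array. The dimmer probe set (211809_x_at) read 289.6, 251.7 and 299.3 with SHH, against 162.2, 121.5 and 178.6 untreated, a log2 difference of 0.81 ± 0.17. In COL13A1 the dimmer probe set thus had the smaller difference, unlike in COL11A1, COL4A1 and COL4A2. The COL13A1 promoter window, chr10:69801656-69801955 on the plus strand of GRCh38.p14 (RefSeq), is shown as that of the gene with the largest difference, with the same marks.
COL13A1: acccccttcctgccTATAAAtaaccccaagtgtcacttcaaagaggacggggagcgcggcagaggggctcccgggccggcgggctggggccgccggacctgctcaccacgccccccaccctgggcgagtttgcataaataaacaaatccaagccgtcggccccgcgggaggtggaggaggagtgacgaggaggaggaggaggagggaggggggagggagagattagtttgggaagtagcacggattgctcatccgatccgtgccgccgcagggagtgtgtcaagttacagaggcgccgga
It was the only collagen window with TATAAA, which begins 236 bases before the start site, and it held neither GGGCGG nor CCAAT.

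COL6A3 encodes the longest chain of type VI collagen, which forms beaded filaments around cells. Its signals were 19669, 21451 and 21006 with SHH, against 15595, 16067 and 17060 untreated, a log2 difference of 0.35 ± 0.11. COL15A1 encodes a collagen-proteoglycan of the basement membrane zone. It read 5454, 5942 and 6053 with SHH, against 4926, 4673 and 4776 untreated, a log2 difference of 0.28 ± 0.11. Both genes thus had small differences, of 1.27-fold and 1.21-fold, with each SHH array above each untreated array.

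COL12A1, COL14A1 and COL16A1 encode fibril-associated collagens, which bind to the surface of fibrils or to other matrix structures and do not form fibrils themselves. COL14A1 read 5538, 6117 and 6182 with SHH, against 8503, 8301 and 8179 untreated. Its means were 5946 ± 354 with SHH and 8328 ± 163 untreated (SD, n = 3 each), and its log2 difference was -0.49 ± 0.11. COL16A1 read 924.4, 1196 and 1015 with SHH, against 1709, 1324 and 1489 untreated, a log2 difference of -0.52 ± 0.16. COL12A1 lay on the other side, with 1198, 1292 and 1527 with SHH, against 673.5, 1087 and 997.0 untreated. Its log2 difference of 0.56 ± 0.21 had the largest SE of the 16, and untreated replicate 1 was well below the other untreated arrays. Without that array the log2 difference of COL12A1 was 0.35. The fibril-associated chains thus did not share a direction.

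COL8A1 encodes a short-chain collagen that forms networks, known from the vessel wall and the cornea. It read 2104, 2441 and 2164 with SHH, against 2642, 2839 and 2642 untreated. The log2 difference was -0.28 ± 0.11, and the highest SHH array lay 1.08 times below the lowest untreated array.

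Many of these probe sets are bright, and bright probe sets as a whole leaned towards SHH. At a mean log2 signal of 13 or more there were 925 probe sets, of which 80.1% were higher with SHH, with a median log2 difference of 0.080. All 7 collagen probe sets in that range, namely both of COL4A1 and of COL4A2, the brighter 2 of COL11A1 and that of COL6A3, were higher as well. The 5th and 95th percentiles of the 925 were -0.13 and 0.33, and 1 of the 7, the brightest of COL4A2, lay between them. With quantile normalization 50.4% of the 925 were higher, with a median log2 difference of 0.0010 and 5th and 95th percentiles of -0.21 and 0.25. With it the collagen differences were 0.59 for COL11A1, 0.35 for COL4A1, 0.26 for COL6A3 and 0.20 for COL4A2, against 0.67, 0.43, 0.35 and 0.28 without it. With arrays centred on their medians, 92.1% of the 925 were higher, with a median log2 difference of 0.165. The differences were then 0.757 for COL11A1, 0.517 for COL4A1, 0.435 for COL6A3 and 0.370 for COL4A2. The part of brightness in the collagen differences was not tested. All 16 probe sets kept their direction under each scaling tried.

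**Figure D3:**
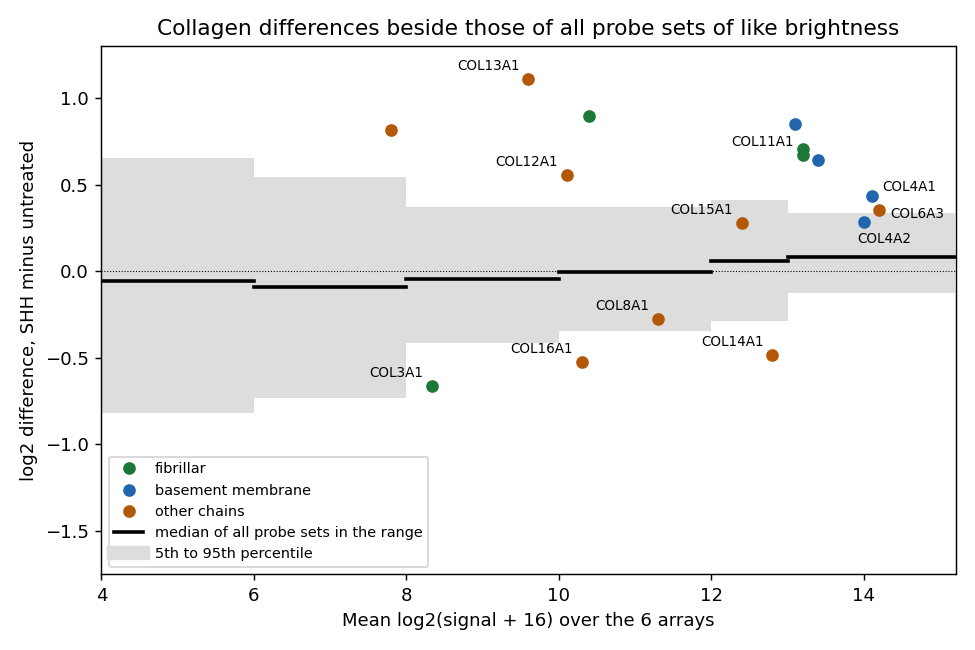
Log2 difference, SHH minus untreated, against the mean log2 signal over the 6 arrays for the 16 collagen probe sets (points, coloured by class; names at the brightest probe set of each gene). Black lines give the median and grey bands the 5th to 95th percentile of all probe sets in each range of brightness; at 13 or more the median is 0.080 and the band runs between -0.13 and 0.33.

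The 4 type IV probe sets kept the same order of arrays in the untreated group, but not in the SHH group. SHH replicate 1 was the lowest SHH array in all 4 of them. The highest SHH array was replicate 2 in 2 of them and replicate 3 in the other 2. Untreated replicate 1 was the lowest and untreated replicate 3 the highest untreated array in all 4. The median deviations of the 4 from their group mean were -0.093, 0.050 and 0.057 on SHH arrays 1 to 3, and -0.13, 0.0050 and 0.14 on untreated arrays 1 to 3 (log2). For the 925 bright probe sets the medians were -0.013, 0.017 and -0.0020 on the SHH arrays, and -0.10, -0.0030 and 0.10 on the untreated arrays. The untreated arrays thus showed a like spread in bright probe sets at large, while the low value of SHH replicate 1 was larger in the type IV sets. Of the 12 higher collagen probe sets, 11 had SHH replicate 1 as the lowest SHH array, and so did 3 of the 4 lower ones (COL14A1, COL16A1 and COL8A1). The part of array brightness in these deviations was not tested.

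**Figure D4:**
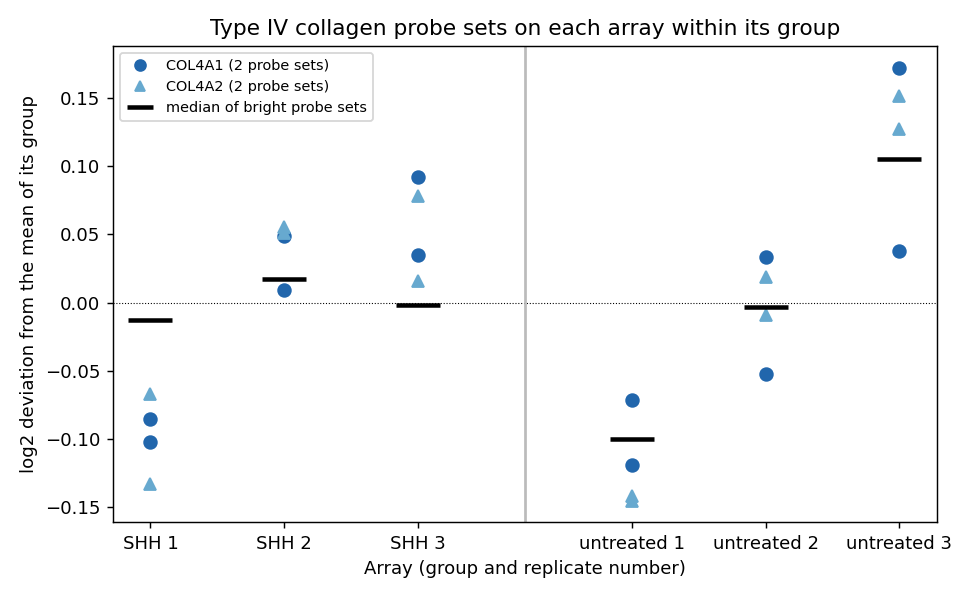
Deviation of each type IV collagen probe set from the mean of its group (log2) on the 3 SHH arrays (left) and the 3 untreated arrays (right), with the median over the 925 bright probe sets as black bars. All 4 type IV probe sets are lowest on replicate 1 of each group and highest on untreated replicate 3.

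Of the 11 genes, 8 had promoter windows in the RefSeq table, with 1 window each. GGGCGG was found in 6 of the 8 windows and in 45.0% of all 35116 windows. CCAAT was found in the windows of COL11A1, COL4A1 and COL4A2, and in 34.6% of all windows. The COL4A1 and COL4A2 windows share 226 bases, so their common CCAAT box and nearer GC box are counted in both. TATAAA was found in 1 of the 8 and in 11.5% of all. None of the 8 held GACCACCCA or its reverse complement, which 0.236% of all windows hold, so its absence here says only that these letters are not in these windows. Among the 8, COL6A3 had the lowest GC content (56.3%) and none of the 4 motifs, and COL4A2 the highest (77.7%).

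The profile over the 6 arrays of COL11A1, COL4A1 and COL14A1 was set against those of 1588 other named genes, by the mean absolute distance between log2 values centred on their mean. The brightest named probe set stood for each gene, so the neighbours depend on that choice. For COL4A1 it had a log2 difference of 0.43, and the dimmer probe set, at 0.85, was not compared. Nearest to COL11A1 were KIAA0746, PGRMC2 and PREB, at 0.026, 0.030 and 0.031. Nearest to COL4A1 were HHEX, ERMP1 and UST, at 0.022, 0.028 and 0.028. Nearest to COL14A1 were RAPH1, VLDLR and LOC285705, at 0.036, 0.041 and 0.042. Among collagens, COL6A3 was nearest to COL4A1 (0.043, with 0.945% of the 1588 genes nearer). COL4A2 (0.073, with 7.37% nearer) and COL15A1 (0.077, with 8.63% nearer) followed. COL4A1 was the collagen nearest to COL11A1 (0.12), with 9.51% of the other genes nearer. COL8A1 was the collagen nearest to COL14A1 (0.10), with 20.9% of the other genes nearer. All compared genes were named through the same p-value limit, so that profiles that separate the groups are common among them.

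Genes that make, cut, bind or degrade collagen were read from 6 lists with 101 genes, of which 33 had a name, 15 higher and 18 lower. By limma adjusted over all probe sets, 1 of the 33 rose and 1 fell, where 0.0824% of all probe sets passed higher and 0.0403% lower, and 31 did not pass. These genes carry a name only through the same p-value limit in this contrast, so nothing is read from their share of calls. Both that passed came from the list of fibril-binding proteins. The proteoglycan versican (VCAN) read 6147, 7247 and 7052 with SHH, against 2255, 1683 and 1827 untreated (log2 difference 1.82 ± 0.15, limma adjusted p = 0.0465). Asporin (ASPN), a small proteoglycan that binds type I collagen, read 1339, 1328 and 1334 with SHH, against 3038, 3448 and 2989 untreated (-1.23 ± 0.11, limma adjusted p = 0.0468). Neither passed in any of the 6 fits that omit an array, nor with a pseudocount of 1. Of the 8 named fibril-binding genes 7 were lower, and the median log2 difference over all 8 was -0.695. Osteoglycin (OGN) and periostin (POSTN) lay at -1.06 ± 0.12 and -0.98 ± 0.14 without passing.

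Of the basement membrane partners of type IV collagen, 9 of 16 were named, 6 of them higher and 3 lower. None passed by its brightest probe set, while 1 of 3 probe sets of LAMA2 passed. The laminin chain LAMA5 averaged 2451 ± 299 with SHH and 1229 ± 79.1 untreated (SD, n = 3 each), a log2 difference of 0.98 ± 0.14. LAMA2, another laminin chain, averaged 1617 ± 144 with SHH and 3250 ± 314 untreated, a difference of -0.999 ± 0.13. LAMA4 lay at 0.98 ± 0.34, with untreated signals of 1080, 2368 and 2521, and at 0.60 without untreated replicate 1. LAMB2 lay at -0.45 ± 0.14. The laminin alpha chains thus lay on both sides while both type IV chains were on one.

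Of the chain assembly and modification genes, 5 of 22 had a name and none passed. The collagen galactosyltransferase COLGALT2 lay at 0.64 ± 0.16 and the prolyl 3-hydroxylase P3H2 at 0.27 ± 0.11. PLOD2, the lysyl hydroxylase of collagen telopeptides, lay at -0.30 ± 0.10 and P3H4 at -0.42 ± 0.17, or -0.28 without untreated replicate 1. Of the cleavage and crosslinking genes 4 of 16 had a name and none passed: transglutaminase TGM2 lay at 0.48 ± 0.10 and the lysyl oxidase family member LOXL2 at 0.23 ± 0.10, while PCOLCE, an enhancer of C-propeptide removal, lay at -0.33 ± 0.12 and PXDN, a peroxidase that crosslinks type IV collagen, at -0.26 ± 0.12. Of the turnover genes 4 of 19 had a name and none passed. The metalloproteinase inhibitors RECK and TIMP3 lay at 0.53 ± 0.11 and -0.45 ± 0.17, and the proteases CTSB and FAP at 0.26 ± 0.11 and -0.47 ± 0.12.

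Of the collagen receptors, 4 of 11 were named, 1 of them higher and 3 lower, without a call. The type IV collagen receptor ADGRG6 averaged 784.9 ± 46.5 with SHH and 557.4 ± 10.7 untreated (SD, n = 3 each), a log2 difference of 0.48 ± 0.11. The integrin chains ITGA11 and ITGA1, which pair with ITGB1 to bind collagen, lay at -0.34 ± 0.10 and -0.29 ± 0.14. The only named ITGB1 probe set was dim, at 35.1, 21.9 and 183.5 with SHH, against 225.2, 254.7 and 153.7 untreated. Its arrays overlapped between the groups, and its difference of -1.61 had an SE of 0.64.

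**Figure D5:**
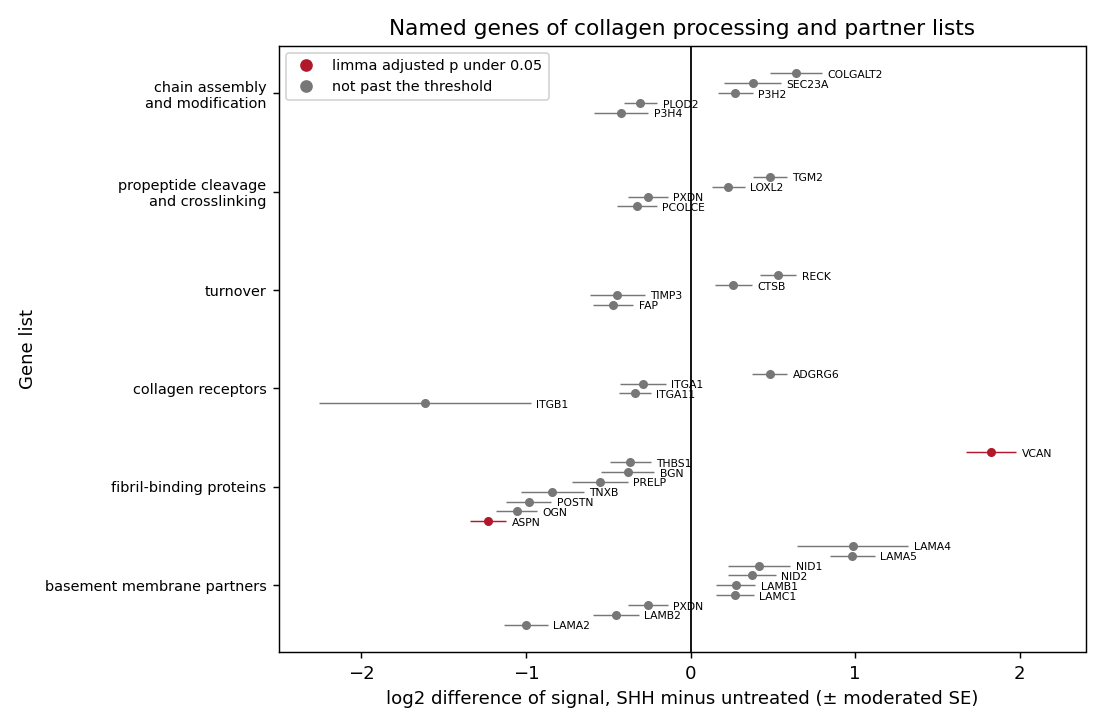
Log2 difference of signal, SHH minus untreated, with limma's moderated SE, for the brightest named probe set of each named gene on the 6 lists (3 arrays per group). Only VCAN, higher, and ASPN, lower, passed limma's adjusted threshold (red); the other genes (grey) did not.

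The labelled cell type could be checked only through markers that carry a name. Of 10 fibroblast markers 3 had one, COL3A1, PDGFRB and FAP, and all were lower with SHH. COL3A1 is itself one of the collagens described here, and FAP is also one of the turnover genes. All markers with a name have it through the same p-value limit in this contrast. PDGFRB lay between 3080 and 3697 with SHH and between 4447 and 5154 untreated. Of 5 smooth muscle markers, MYH11 lay between 1391 and 1773 with SHH and between 706.6 and 888.5 untreated, and CNN1 between 4895 and 5422 with SHH and between 5861 and 7126 untreated. Among markers of other cells, 1 of 8 epithelial (KRT18, -0.42 ± 0.11), 0 of 4 endothelial, 1 of 4 leukocyte (CD14, 0.73 ± 0.25, and 0.47 without untreated replicate 2), 1 of 4 glial and neuronal (UCHL1, 0.67 ± 0.10) and 4 of 4 interstitial or pericyte markers had a name. The last were KIT, RGS5 and KCNJ8, all lower, and ANO1, higher. KRT18 lay between 3991 and 4507 with SHH and between 5273 and 5883 untreated. UCHL1 lay at 6168 to 6527 and 3865 to 4167, KIT at 1730 to 1911 and 2405 to 2636, in the same order. ANO1 lay at 2724 to 3203 and 1957 to 2475, CD14 at 250.4 to 281.3 and 102.1 to 207.5. FAP lay at 630.8 to 735.0 with SHH and 872.4 to 1027 untreated. Signals depend on the probes, so these levels were not compared between markers. The part of these markers in the collagen differences was not tested.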

How the data were processed

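Total RNA was converted to cDNA with an oligo(dT) primer and to biotin-labelled cRNA, per the labels' protocols. The value table holds 1 intensity per probe set and array, made by the authors on a linear scale. Its 2% trimmed means lie between 498.1 and 498.2, and no source used here states the image analysis, probe summary or scaling. The p-value and log2 fold change of the authors' deposited table come from a Cyber-T test, per the deposited readme, and that fold change runs untreated minus SHH by its values. Its per-array signals for the untreated arrays equal those of the value table (largest difference 0).

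Groups and replicate numbers came from the sample titles. Names for the other lists needed 1 symbol and agreement of both symbol columns (2157 probe sets, 1599 genes), brought to current use through RefSeq (GRCh38.p14). The brightest named probe set stands for a gene. The 2-sided test was limma's (lmFit, eBayes; version 3.58.1, R 4.3.3), SHH minus untreated, on log2(signal + 16) over 54613 probe sets with Benjamini-Hochberg adjustment. The pseudocount understates differences of dim probe sets. Tables were made with Python 3.11.15 and pandas 2.3.3. The text names every collagen gene found, up to 4 genes per list by smallest p and the 3 nearest profiles of 3 genes; markers are named wherever the table names them, and the plot of the lists shows all named members. The members and lists were chosen with earlier results of these data known. No batch is recorded. Over all probe sets, same-numbered SHH and untreated arrays did not deviate together (correlations between -0.0147 and 0.0193). With 3 arrays per group this cannot exclude a pairing, and the main fit treats the arrays as unpaired. Alternatives were other pseudocounts, quantile normalization, median centring, a filter on dim probe sets, an intensity trend, the replicate block and leaving out each array.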

Additional observations from a re-analysis of the deposited data

How the results depend on the processing

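The count of 12 higher of 16 collagen probe sets was the same under the 10 alternatives that recompute the differences (pseudocounts, scalings and leaving out an array). Other pseudocounts and leaving out an array could not change a direction, because the groups did not overlap in any of the 16. Only the scalings could have changed this count. The dim filter, the intensity trend and the replicate block leave each difference as it is by construction. Their median log2 difference of 0.49 was 0.58 with median-centred arrays and between 0.37 and 0.55 when 1 array was left out, lowest without untreated replicate 1. The count of collagen probe sets past limma's adjusted threshold was 0, where 0.123% of all probe sets passed. It was 5 with a pseudocount of 64, where 295 of all 54613 passed. With an intensity trend it was 9, where 1.86% of all passed. The dim filter kept only probe sets above the median of mean log2 signal. With that filter 7 collagen probe sets passed, and 558 of all those kept. Leaving out 1 array gave 0 collagen probe sets past the threshold. An unadjusted limma p under 0.05 was then found for 11 to 13 of them, beside 4411 to 5180 of all probe sets. Nothing is read from these counts, because the same contrast chose the members.

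Over all probe sets limma called 67. A pseudocount of 1 gave 0 (5009 unadjusted), a pseudocount of 64 gave 295, median centring 34, and calls numbered 558 with dim probe sets left out and 1014 with an intensity trend. With the replicate block limma called 0 of all probe sets (4746 unadjusted), 0 collagens (11) and 0 list genes (16). When any 1 array was left out limma called 0 (4411 to 5180 unadjusted). Of the list genes 2 passed limma, and 0 with a pseudocount of 1 (20 unadjusted), 6 with a pseudocount of 64, 1 with centred arrays, 9 with dim probe sets left out, 13 with an intensity trend and 0 when any 1 array was left out (15 to 22 unadjusted). The list genes were named through the same contrast, so nothing is read from their counts. The cause of these shifts in calls was not tested. Of 114 values of single collagen genes that the alternatives could move, 102 moved by less than 1 SD between replicates and 12 by more. None changed sign, which only the scalings could have brought about. The mean of all named probe sets in place of the brightest gave 0.64 for COL4A1 and 0.46 for COL4A2.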

Other observations

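A further probe set (228750_at) has no array symbol, and the authors' symbol places it 3' of COL14A1, so it was not counted among the collagens. It read 2060, 2531 and 2415 with SHH, against 3598, 3445 and 3372 untreated. All SHH arrays lay below all untreated arrays, with a log2 difference of -0.57 ± 0.12 (limma's moderated SE, n = 3 per group), beside -0.49 ± 0.11 for the named COL14A1 probe set.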
